A study of Homo sapiens with 8 samples.

Results

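Genes of the COMPASS family of histone methyltransferases were followed through a genome-wide growth screen: WDR5, RBBP5, ASH2L, DPY30, SETD1A, SETD1B, CXXC1, WDR82, HCFC1 and MEN1. They were chosen by name, as core subunits or SETD1 and menin subunits, and make up 10 of the 18905 genes in the library. Of 205280 sgRNAs with a target, 100 carry these symbols. Of those 100, 49 had no read in any library, 2 were counted too rarely to test and 49 were kept, 4 for WDR5 and 5 for each of the others.

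The cells were K562, a human leukemia line that the labels list as lymphoblast cells, and all of them expressed dCas9-KRAB, a Cas9 without nuclease activity fused to a transcriptional repressor. The groups were cells that stably expressed mutant uL16 at day 9 and at day 0, and cells that stably expressed wild-type uL16 at day 9 and at day 0, with 2 libraries each and 8 in all. The protein uL16 belongs to the large ribosomal subunit; the labels leave unstated which mutation it carries, whether the cells kept their own uL16, or how many clones a line stands for. All groups were selected with puromycin after transduction, and the design text puts the end of the screen at 10 cell doublings.

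COMPASS complexes place methyl groups on lysine 4 of histone H3, a mark found at active promoters and enhancers. A SET-domain enzyme works in them with a shared core of WDR5, RBBP5, ASH2L and DPY30; the SETD1 complexes add CXXC1 and WDR82, while menin, the product of MEN1, belongs to complexes of the MLL enzymes. WDR5, WDR82 and HCFC1 also belong to complexes outside COMPASS, and MLL fusions and menin are known from leukemia.

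In this screen the DNA of the integrated sgRNA was counted, so a value is the share of sequenced reads that carry a gene's sgRNAs, given as CPM, the usual scale of counts per fixed library size. A lower CPM at day 9 than at day 0 means that cells with that sgRNA became a smaller part of the culture. CPM values are compared here between libraries and not between genes, since each sgRNA starts at its own level in the library. Neither the transcripts nor histone methylation was measured, so the strength of each knockdown is unknown and the labelled cell type could not be checked against markers.

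CRISPRi sgRNAs are placed around transcription start sites, so promoter sequences are shown for 3 members that fell in both lines (WDR5, WDR82 and MEN1) and for RBBP5, which passed the test in neither line alone. RefSeq windows of 300 bases, which run from upstream of an annotated start into the first transcribed bases, were given for 6 of the 10 members (WDR5, RBBP5, SETD1A, CXXC1, WDR82 and MEN1). Where a gene had several windows, the one with the most CpG dinucleotides is printed, 5′ to 3′ in the direction of the gene, on build GRCh38.p14. Capitals mark every match, on either strand, to the GC box (GGGCGG), the CCAAT box (CCAAT), the cAMP response element (TGACGTCA), or motifs of ETS factors (CCGGAAG) and YY1 (ATGGCGG); neighbouring GC boxes may overlap. Which of the annotated starts each sgRNA addresses was not determined here.
WDR5 (chr9:134136171-134136470, plus strand): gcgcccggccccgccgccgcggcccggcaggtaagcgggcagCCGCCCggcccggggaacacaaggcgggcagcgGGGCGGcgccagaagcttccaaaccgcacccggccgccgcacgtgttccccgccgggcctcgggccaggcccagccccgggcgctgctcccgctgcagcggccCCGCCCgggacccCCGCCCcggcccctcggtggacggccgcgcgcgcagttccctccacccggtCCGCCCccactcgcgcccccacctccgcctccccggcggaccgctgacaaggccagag
WDR82 (chr3:52278600-52278899, minus strand): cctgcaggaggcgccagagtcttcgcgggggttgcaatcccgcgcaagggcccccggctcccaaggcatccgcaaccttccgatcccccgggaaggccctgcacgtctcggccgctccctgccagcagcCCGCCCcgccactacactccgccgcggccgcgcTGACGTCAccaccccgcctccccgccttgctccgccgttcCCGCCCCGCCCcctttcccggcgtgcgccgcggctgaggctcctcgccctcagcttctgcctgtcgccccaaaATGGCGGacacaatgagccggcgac
MEN1 (chr11:64810502-64810801, minus strand): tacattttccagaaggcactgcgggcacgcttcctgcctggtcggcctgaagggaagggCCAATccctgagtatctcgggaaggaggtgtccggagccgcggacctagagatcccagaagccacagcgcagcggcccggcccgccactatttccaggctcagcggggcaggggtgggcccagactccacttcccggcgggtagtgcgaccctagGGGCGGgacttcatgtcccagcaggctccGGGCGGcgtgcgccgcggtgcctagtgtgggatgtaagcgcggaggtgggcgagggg
RBBP5 (chr1:205121929-205122228, minus strand): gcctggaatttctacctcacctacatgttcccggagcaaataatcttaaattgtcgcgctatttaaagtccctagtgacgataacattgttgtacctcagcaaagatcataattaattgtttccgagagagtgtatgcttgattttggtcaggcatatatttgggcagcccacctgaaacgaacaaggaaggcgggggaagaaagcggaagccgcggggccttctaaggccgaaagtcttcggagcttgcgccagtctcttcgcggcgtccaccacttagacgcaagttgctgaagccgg

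The printed windows held 45 CpG dinucleotides for WDR5, 36 for WDR82, 25 for MEN1 and 18 for RBBP5, and the windows of SETD1A and CXXC1, not printed, held 30 and 28. The median over 35116 such windows was 14, but those of WDR5 and MEN1 were picked as the richest of their gene. The other WDR5 windows held 6, 16 and 31 CpG dinucleotides, and the other MEN1 window held 20. CXXC1, which passed the test in neither line, had more CpG dinucleotides than MEN1. Whether CpG content was related to the falls was not tested. The WDR5 window held 5 GC boxes, that of WDR82 held 3 and that of MEN1 held 2, while the RBBP5 window matched none of the 5 motifs; 45% of all windows held a GC box. The WDR82 window also held a cAMP response element, found in 1.85% of windows, and a YY1 motif, found in 5.55%. The MEN1 window held a CCAAT box, as 34.6% of windows did. The ETS motif, in 10.3% of windows, matched none of the 4. These are matches of letters and not measured sites.

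Over the whole series, library totals ranged from 39233340 to 143585751 reads, and 95977 sgRNAs of 18903 genes were tested with edgeR's quasi-likelihood test. The 1894 non-targeting control sgRNAs kept had a median log2 change of 0.04 in mutant cells and 0.05 in wild-type cells, and 95% of them lay between -0.68 and 0.61 in mutant cells and between -0.71 and 0.63 in wild-type cells. The median over all genes was 0.01 in both lines. The labels do not say that replicates came from separate cultures, so p-values measure the spread between these libraries, which may be technical.

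In mutant cells 5 of the 10 COMPASS genes fell by day 9 at an adjusted p under 0.05 (WDR5, DPY30, WDR82, MEN1 and SETD1A) and none rose, where 8.53% of all genes fell and 0.704% rose. In wild-type cells 4 of the 10 fell (WDR5, MEN1, WDR82 and DPY30) and none rose, where 8.7% of all genes fell and 0.868% rose. The fall of WDR5 was the largest of the 10 in both lines. The median log2 change of the 10 was -0.37 in mutant cells and -0.27 in wild-type cells. The plot of abundance by library shows these values.

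**Figure D1:**
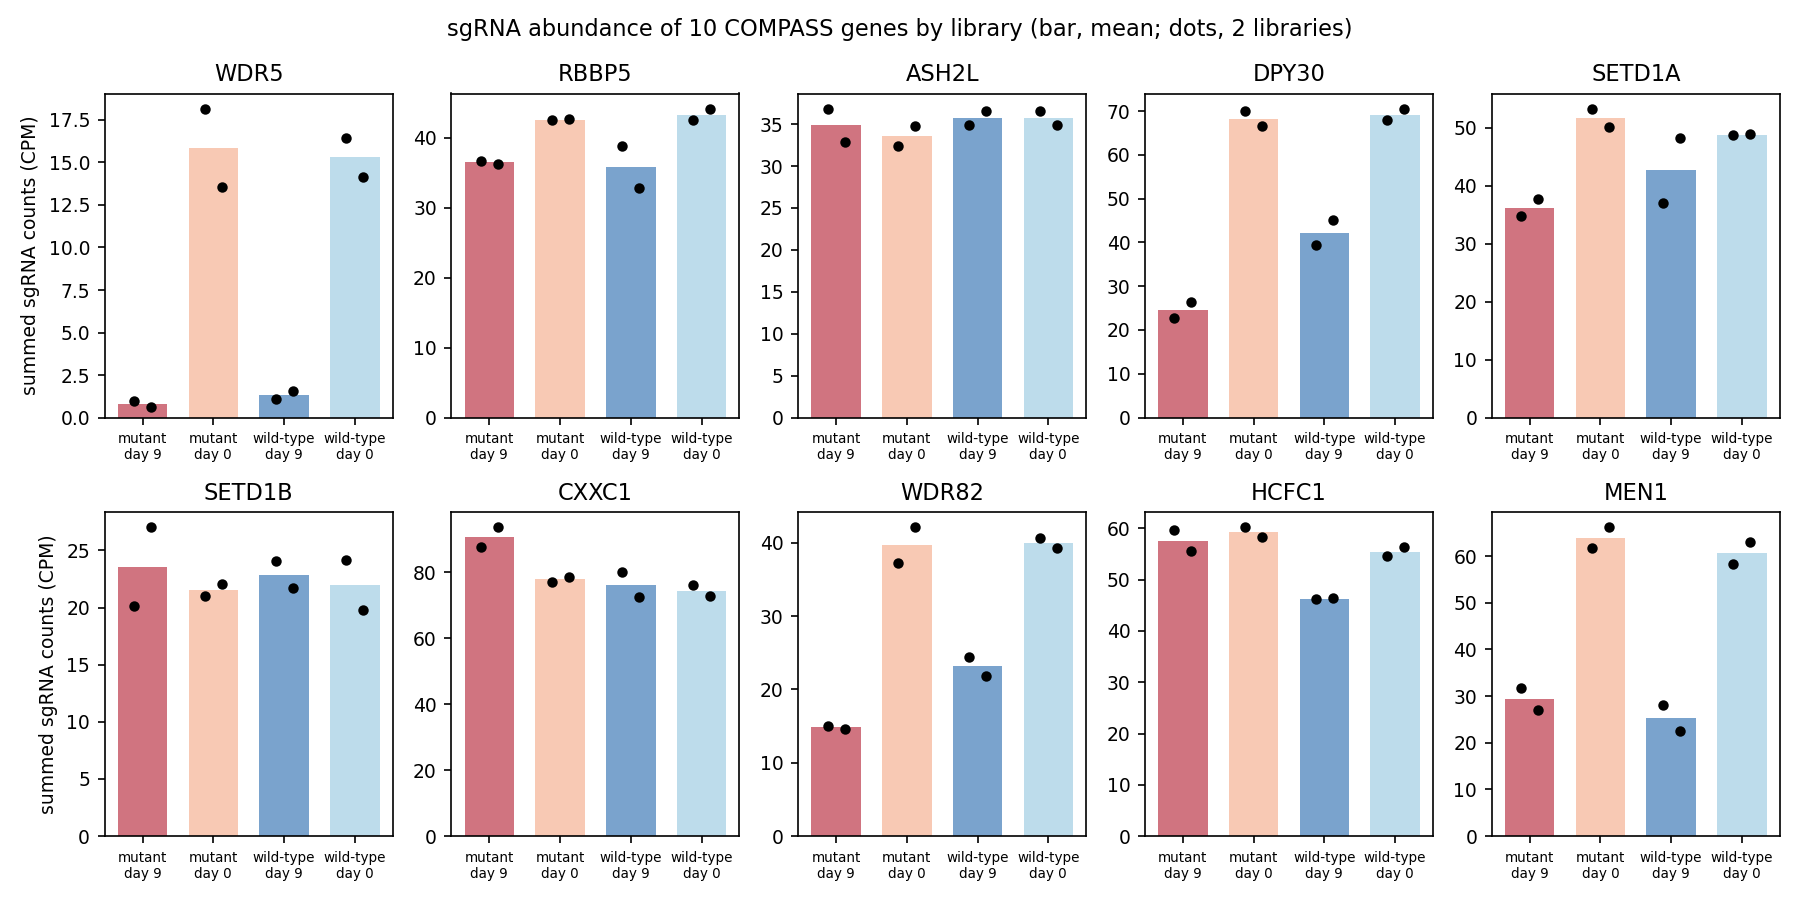
sgRNA abundance of the 10 COMPASS genes, as summed CPM on the y axis, in mutant day 9, mutant day 0, wild-type day 9 and wild-type day 0 libraries; bars are group means and dots the 2 libraries. WDR5 was near 1 CPM in the day 9 libraries of both lines, against 13.5 to 18.1 CPM in the day 0 libraries, and each panel has its own y scale.

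WDR5, a WD40 propeller that binds histone H3 and the SET-domain enzymes and is shared by all COMPASS complexes, lost nearly all of its sgRNAs. In mutant cells it had 0.95 and 0.62 CPM at day 9, against 18.1 and 13.5 CPM at day 0. In wild-type cells it had 1.11 and 1.54 CPM at day 9, against 16.4 and 14.2 CPM at day 0. The day 9 libraries lay far below the day 0 libraries in both lines, with 4.93% of the day 0 mean left in mutant cells and 8.65% in wild-type cells. Its log2 change was -4.42 (SE 0.39; 95% interval -5.22 to -3.62) in mutant cells, with an adjusted p of 1.2e-10 from edgeR. In wild-type cells it was -3.53 (SE 0.37; interval -4.28 to -2.77), with an adjusted p of 5.19e-09. Ordered from the largest fall, WDR5 was number 4 of 18903 genes in mutant cells and number 17 in wild-type cells. The day 9 values rest on few reads, 34 and 58 in the mutant libraries and 48 and 70 in the wild-type libraries.

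All 4 kept WDR5 sgRNAs fell in both lines. Their log2 changes ran from -5.32 to -3.47 in mutant cells and from -5.07 to -2.42 in wild-type cells, each with an adjusted p under 0.05 over all sgRNAs. The sgRNA that fell least in both lines lay 193 bases from the first listed WDR5 sgRNA and the other 3 within 65 bases of it. A further WDR5 sgRNA was counted too rarely to test, with 2 and 1 reads in mutant day 9 libraries, 3 and 41 in mutant day 0 libraries, 0 and 2 in wild-type day 9 libraries, and 10 and 6 in wild-type day 0 libraries. No sgRNA of another gene lay within 68117 bases of a kept WDR5 sgRNA.

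The other core subunits did not share the size of this fall. RBBP5, a propeller protein that bridges WDR5 and ASH2L, had 36.8 and 36.3 CPM in mutant day 9 libraries, against 42.6 and 42.7 CPM in mutant day 0 libraries. It had 38.9 and 32.9 CPM in wild-type day 9 libraries, against 42.6 and 44.1 CPM in wild-type day 0 libraries. The day 9 libraries were lower without overlap in both lines, but the changes of -0.22 (SE 0.12; adjusted p = 0.322) in mutant cells and -0.27 (SE 0.12; adjusted p = 0.167) in wild-type cells did not pass edgeR's test. A single RBBP5 sgRNA fell in each line, with a log2 change of -1.53 in mutant cells and -1.61 in wild-type cells. The other 4 lay between -0.40 and 0.19 in mutant cells and between -0.48 and 0.04 in wild-type cells. Without wild-type day 9 replicate 1 the wild-type change of the gene was -0.40 (adjusted p = 0.0423), and with limma on mean log2 CPM it passed in both lines (-0.44 and adjusted p = 0.0427 in mutant cells, -0.46 and adjusted p = 0.0311 in wild-type cells). Over 19 alternatives the adjusted p ran from 0.0427 to 0.748 in mutant cells and from 0.0311 to 0.522 in wild-type cells.

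ASH2L, the subunit that with RBBP5 activates the enzyme, stayed close to its day 0 abundance. It had 36.8 and 32.9 CPM in mutant day 9 libraries, against 32.4 and 34.8 CPM in mutant day 0 libraries. It had 34.9 and 36.6 CPM in wild-type day 9 libraries, against 36.6 and 34.9 CPM in wild-type day 0 libraries. The days overlapped in both lines, and the 95% interval of the log2 change was -0.20 to 0.30 in mutant cells and -0.25 to 0.25 in wild-type cells. None of its 5 sgRNAs passed the test, and they lay between -0.34 and 0.34 in mutant cells and between -0.65 and 0.63 in wild-type cells. How far these sgRNAs lowered ASH2L was not measured.

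DPY30, a small dimeric protein that binds ASH2L, had 22.8 and 26.5 CPM in mutant day 9 libraries, against 69.9 and 66.6 CPM in mutant day 0 libraries. It had 39.3 and 45.2 CPM in wild-type day 9 libraries, against 67.9 and 70.5 CPM in wild-type day 0 libraries. Both lines were lower at day 9 without overlap, and the mutant day 9 libraries lay below the wild-type ones. The log2 change was -1.46 (SE 0.11; adjusted p = 1.9e-12) in mutant cells and -0.71 (SE 0.11; adjusted p = 4.46e-06) in wild-type cells. All 5 sgRNAs were lower at day 9 in both lines; 3 of them passed the test in mutant cells and 1 in wild-type cells. The sgRNA that fell most changed by -2.55 (SE 0.19) in mutant cells and by -1.23 (SE 0.18) in wild-type cells.

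The 5 kept DPY30 sgRNAs are also listed, with the same counts, for the neighbouring gene MEMO1, whose product acts in receptor signalling to the cytoskeleton, so the 2 genes cannot be told apart at this promoter. MEMO1 has a separate second promoter with 5 sgRNAs of its own. Those sgRNAs summed to 55.1 and 55.7 CPM in mutant day 9 libraries, against 53.4 and 56.3 CPM in mutant day 0 libraries. They summed to 60.0 and 53.6 CPM in wild-type day 9 libraries, against 55.7 and 54.5 CPM in wild-type day 0 libraries. At that promoter the log2 change was 0.02 (SE 0.09; adjusted p = 0.971 over 1395 second promoters) in mutant cells and 0.04 (SE 0.10; adjusted p = 0.892) in wild-type cells. Whether repression there lowers MEMO1 was not measured. The DPY30 sgRNA counted too rarely to test is the only counted DPY30 sgRNA not also listed for MEMO1. It had 19 and 31 reads in mutant day 9 libraries, against 8 and 28 in mutant day 0 libraries. In wild-type libraries it had 16 and 18 reads at day 9, against 11 and 12 at day 0. Relative to library totals it was higher at day 9 in both lines, unlike the 5 shared sgRNAs. With so few reads its change was not tested.

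Of the SETD1 enzymes, SETD1A fell modestly in mutant cells. SETD1A, which methylates histone H3 lysine 4 at promoters, had 34.8 and 37.6 CPM in mutant day 9 libraries, against 53.2 and 50.1 CPM in mutant day 0 libraries. It had 37.0 and 48.2 CPM in wild-type day 9 libraries, against 48.7 and 48.9 CPM in wild-type day 0 libraries. The mutant libraries of the 2 days were well apart, while wild-type day 9 replicate 2 was close to the day 0 level. The log2 change was -0.51 (SE 0.12; adjusted p = 0.00175) in mutant cells and -0.20 (SE 0.12; adjusted p = 0.382) in wild-type cells. The difference between the lines, -0.32 (SE 0.16; 95% interval -0.65 to 0.02), had an adjusted p of 0.895, so the lines were not shown to differ.

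For SETD1A the call depended on single libraries. Without mutant day 0 replicate 1 the mutant change was -0.47 (adjusted p = 0.0501), and with limma on mean log2 CPM it was -0.41 (adjusted p = 0.0515). Without wild-type day 9 replicate 2 the wild-type change was -0.40 (adjusted p = 0.0329), and without its most abundant sgRNA it was -0.53 (adjusted p = 0.00681). Over 19 alternatives the adjusted p ran from 8.32e-05 to 0.0515 in mutant cells and from 0.00681 to 0.950 in wild-type cells. All 5 sgRNAs were below 0 in mutant cells and 3 in wild-type cells. The sgRNA 24 bases from the first listed fell most in mutant cells, by 0.96 on the log2 scale, and was the single SETD1A sgRNA to pass there.

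SETD1B, the paralog of SETD1A, had 20.2 and 27.0 CPM in mutant day 9 libraries, against 21.0 and 22.1 CPM in mutant day 0 libraries. It had 24.0 and 21.7 CPM in wild-type day 9 libraries, against 24.1 and 19.8 CPM in wild-type day 0 libraries. The days overlapped in both lines, and the log2 change was 0.14 (SE 0.17; adjusted p = 0.780) in mutant cells and 0.06 (SE 0.17; adjusted p = 0.908) in wild-type cells. Its sgRNAs moved in opposite directions in both lines. The first listed fell by 1.79 on the log2 scale in mutant cells (adjusted p = 0.0102) and by 1.65 in wild-type cells (adjusted p = 0.0218). The sgRNA 291 bases from it was higher at day 9 by 0.76 in mutant cells (adjusted p = 0.0603) and by 0.79 in wild-type cells (adjusted p = 0.0496). The sgRNA 291 bases away was the most abundant of SETD1B, and without it the gene's change was -0.40 in mutant cells and -0.41 in wild-type cells, both short of the threshold (adjusted p = 0.406 and adjusted p = 0.359).

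CXXC1, which binds unmethylated CpG DNA and brings SETD1 complexes to promoters, was not lower on average at day 9 in either line. It had 87.5 and 93.5 CPM in mutant day 9 libraries, against 77.1 and 78.5 CPM in mutant day 0 libraries. It had 79.9 and 72.5 CPM in wild-type day 9 libraries, against 75.9 and 72.8 CPM in wild-type day 0 libraries. The mutant day 9 libraries were above those of day 0 and the wild-type libraries overlapped. The log2 change was 0.22 (SE 0.08; adjusted p = 0.110) in mutant cells and 0.03 (SE 0.08; adjusted p = 0.883) in wild-type cells. The mutant change passed with DESeq2 (adjusted p = 0.0157) and with limma-voom weighted by day (adjusted p = 0.0124), in a range up to 0.539 over 19 alternatives. Its sgRNAs also differed in direction: 1 of 5 was at -0.67 in mutant cells and -0.78 in wild-type cells, while the other 4 lay between 0.18 and 0.55 in mutant cells and between -0.14 and 0.31 in wild-type cells.

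WDR82, which ties SETD1 enzymes to phosphorylated RNA polymerase II, had 15.1 and 14.6 CPM in mutant day 9 libraries, against 37.2 and 42.1 CPM in mutant day 0 libraries. It had 24.4 and 21.8 CPM in wild-type day 9 libraries, against 40.7 and 39.2 CPM in wild-type day 0 libraries. Day 9 was lower without overlap in both lines, and lower in the mutant than in the wild-type libraries. The log2 change was -1.42 (SE 0.14; adjusted p = 8.43e-10) in mutant cells and -0.79 (SE 0.14; adjusted p = 4.65e-05) in wild-type cells.

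The WDR82 sgRNAs fell to different extents, and whether this followed their place was not tested. The 3 that lay 34 to 62 bases from the first listed fell by 2.24 to 3.11 on the log2 scale in mutant cells, and they changed by -1.67 to -0.77 in wild-type cells. The sgRNA 470 bases from the first listed, the most abundant of the gene, was at -0.36 in mutant cells and -0.13 in wild-type cells. The last, 492 bases away, was at -1.45 in mutant cells and -0.62 in wild-type cells, short of the threshold in both. Without the most abundant sgRNA the gene's change was -2.44 in mutant cells and -1.21 in wild-type cells.

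HCFC1, a chromatin-bound co-regulator of cell cycle genes found in SETD1 and MLL complexes, had 59.6 and 55.5 CPM in mutant day 9 libraries, against 60.2 and 58.3 CPM in mutant day 0 libraries. It had 46.2 and 46.4 CPM in wild-type day 9 libraries, against 54.6 and 56.4 CPM in wild-type day 0 libraries. The wild-type libraries did not overlap between days and the mutant ones did. The log2 change was -0.04 (SE 0.10; adjusted p = 0.896) in mutant cells and -0.26 (SE 0.10; adjusted p = 0.0956) in wild-type cells. The wild-type change passed when libraries were scaled to control sgRNAs (-0.30; adjusted p = 0.0476) and with DESeq2 (adjusted p = 0.0106), in a range up to 0.393 over 19 alternatives. A single HCFC1 sgRNA passed, in wild-type cells, at -1.01 (adjusted p = 0.0372), and was at -0.65 in mutant cells. The nearest sgRNA of another gene, TMEM187, lay 994 bases from those of HCFC1. TMEM187 itself was at 0.18 in mutant cells and -0.14 in wild-type cells, neither past the threshold.

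MEN1, whose product menin is a scaffold of MLL complexes and a tumour suppressor of endocrine tissue, had 31.7 and 26.9 CPM in mutant day 9 libraries, against 61.8 and 66.2 CPM in mutant day 0 libraries. It had 28.1 and 22.5 CPM in wild-type day 9 libraries, against 58.2 and 63.0 CPM in wild-type day 0 libraries. Day 9 lay below day 0 in both lines, and the day 9 libraries of the lines overlapped. The log2 change was -1.13 (SE 0.12; adjusted p = 3.32e-09) in mutant cells and -1.26 (SE 0.12; adjusted p = 4.78e-10) in wild-type cells. On changes of log2(CPM + 0.5), its 5 sgRNAs had the smallest SD between sgRNAs of the 10 genes, 0.26 in mutant cells and 0.27 in wild-type cells. All 5 were lower at day 9 in both lines, between -1.44 and -0.76 in mutant cells and between -1.51 and -0.88 in wild-type cells.

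Across the 10 genes, day 9 and day 0 libraries did not overlap in mutant cells for 6 genes that were lower, where 24.2% of all genes were, and for 1 that was higher, where 23.5% were. In wild-type cells 7 genes were lower without overlap, where 23.7% of all genes were, and none was higher, where 22.7% were.

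Ordered by the log2 change in mutant cells, the genes ran WDR5, DPY30, WDR82, MEN1, SETD1A, RBBP5, HCFC1, ASH2L, SETD1B and CXXC1. The 95% interval of WDR5 lay wholly below that of DPY30. Those of DPY30, WDR82 and MEN1 overlapped, and that of MEN1 lay below that of SETD1A. From SETD1A on, each gene's interval overlapped that of its neighbour in the order. In wild-type cells the order was WDR5, MEN1, WDR82, DPY30, RBBP5, HCFC1, SETD1A, ASH2L, CXXC1 and SETD1B. There the WDR5 interval again lay below all others, and the intervals of every other pair of neighbours overlapped. The plot of log2 changes by line shows these intervals.

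**Figure D2:**
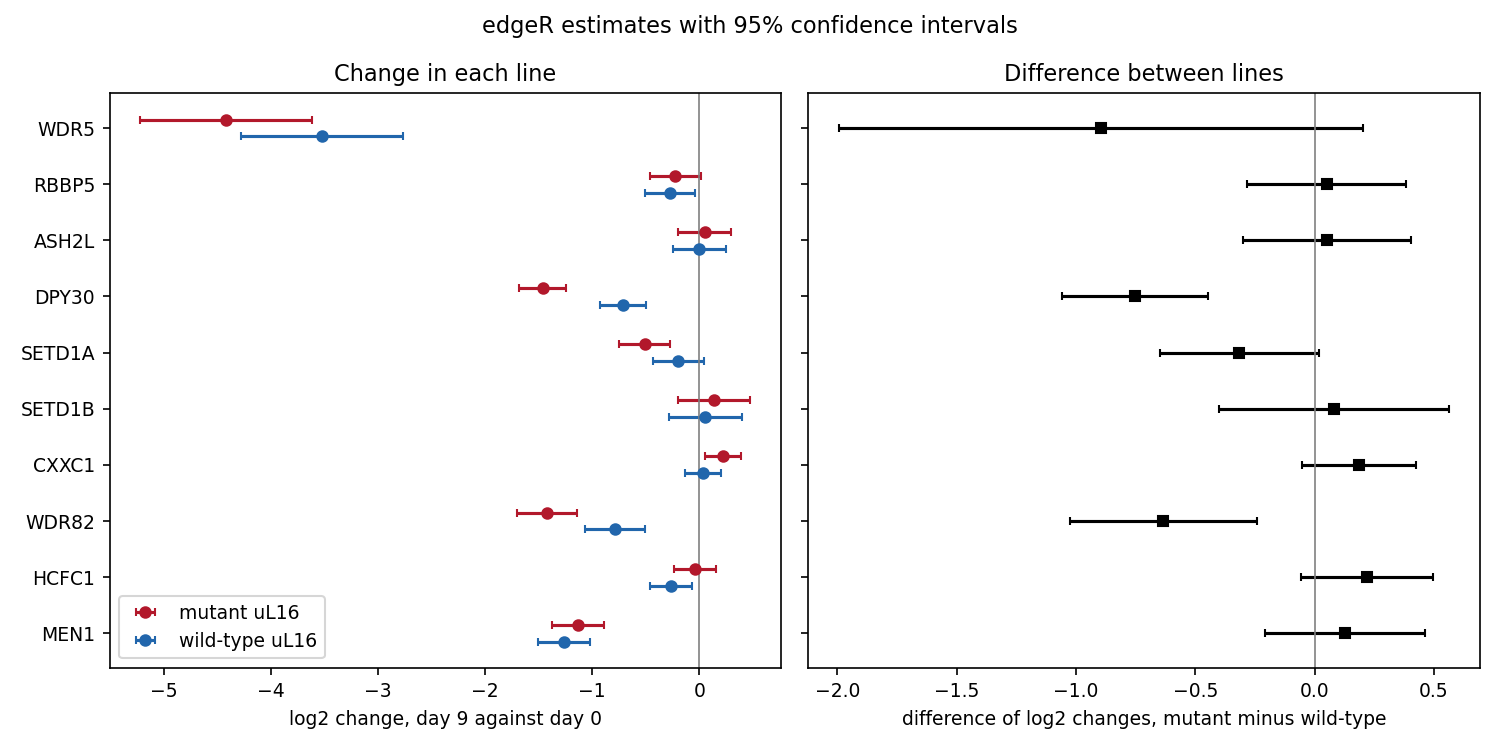
Left, log2 change of day 9 against day 0 for each COMPASS gene in mutant (red) and wild-type (blue) cells; right, the mutant change minus the wild-type change. Points are edgeR estimates and bars their 95% confidence intervals. WDR5 lies far to the left in both lines, and the intervals of DPY30 and WDR82 in the right panel lie below 0.

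Averaged over both lines, 6 of the 10 genes fell and none rose, where 11.4% of all genes fell and 2.17% rose. These were WDR5 (-3.97, SE 0.27), MEN1 (-1.20, SE 0.08), WDR82 (-1.11, SE 0.10), DPY30 (-1.09, SE 0.08), SETD1A (-0.35, SE 0.08; adjusted p = 0.00167) and RBBP5 (-0.25, SE 0.08; adjusted p = 0.0378). RBBP5 passed in neither line alone, and its mean change had an adjusted p of 0.0537 to 0.147 when any library but wild-type day 9 replicate 1 was left out, in a range from 0.00171 over 18 alternatives. HCFC1 was at -0.15 (SE 0.07; adjusted p = 0.165) and passed with DESeq2 (adjusted p = 0.0378) and with limma on mean log2 CPM (adjusted p = 0.0401), in a range up to 0.438. ASH2L was at 0.02 (SE 0.09), SETD1B at 0.10 (SE 0.12) and CXXC1 at 0.13 (SE 0.06), none past the threshold.

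The study asked which factors matter in cells with defective large subunits, and the comparison for that is the change in mutant cells minus the change in wild-type cells. None of the 10 COMPASS genes passed edgeR's test of this difference, where 0.0159% of all genes (3 of 18903) were lower and none was higher. At an unadjusted p under 0.05, 2 of the 10 differed (DPY30 and WDR82), where 5.57% of all genes did. DESeq2 called the same 2, but the share of all genes that it called was not counted. DPY30, with MEMO1, had a difference of -0.75 (SE 0.15; 95% interval -1.06 to -0.45) and an adjusted p of 0.0709. Each of its 5 sgRNAs had a difference below 0, from -1.31 to -0.17. The adjusted p was 0.0447 without mutant day 9 replicate 2, 0.00663 without wild-type day 9 replicate 1 and 0.000129 with DESeq2, the lowest of 18 alternatives, which reached 1.00.

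WDR82 had a difference of -0.63 (SE 0.19; 95% interval -1.03 to -0.24), with an adjusted p of 0.752 from edgeR and 0.0470 from DESeq2. Its 5 sgRNAs also all had differences below 0, from -1.47 to -0.23, and none passed singly. Without its most abundant sgRNA the difference was -1.23 (adjusted p = 0.150), and over 18 alternatives the adjusted p ran from 0.0470 to 1.00. WDR5 had a difference of -0.90, of which the error was wide (SE 0.54; 95% interval -1.99 to 0.20; adjusted p = 0.901). Leaving out each library gave -1.15 to -0.53, and since the interval holds 0, a difference between the lines was not shown for WDR5. MEN1 differed by 0.13 (95% interval -0.21 to 0.46), ASH2L by 0.05 (interval -0.30 to 0.40), RBBP5 by 0.05 (interval -0.28 to 0.38) and SETD1B by 0.08 (interval -0.40 to 0.56). CXXC1 differed by 0.18 (interval -0.05 to 0.42) and HCFC1 by 0.22 (interval -0.06 to 0.50).

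Set against each other at day 9, mutant and wild-type libraries differed for 2 of the 10 genes, both lower in mutant cells, where 0.143% of all genes were lower and 0.0794% were higher. DPY30 differed by -0.77 on the log2 scale (SE 0.11; adjusted p = 1.68e-04). WDR82 differed by -0.64 (SE 0.14; adjusted p = 0.0336), but its adjusted p was 0.0670 to 0.117 when any library but wild-type day 9 replicate 2 was left out. Over all 18 alternatives it ran from 4.68e-05 to 0.240. Libraries of the lines did not overlap at day 9 for 3 genes that were lower in mutant cells (WDR5, DPY30 and WDR82), where 18% of all genes were, and for 2 that were higher (CXXC1 and HCFC1), where 17.9% were. At day 0 none of the 10 genes differed between the lines by edgeR, nor did any at an unadjusted p under 0.05, where 1.3% of all genes did. DESeq2 also called none at day 0. The day 0 differences ran from -0.09 for ASH2L to 0.09 for HCFC1, and libraries did not overlap for 1 lower gene (16.1% of all genes) and 3 higher genes (17.7% of all genes).

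Taken singly, 16 of the 49 kept COMPASS sgRNAs fell in mutant cells, where 5% of all sgRNAs did, and none rose, where 0.165% did. In wild-type cells 12 fell, where 5.12% of all sgRNAs did, and 1 rose, where 0.267% did. With wild-type day 0 replicate 1 left out, these 13 calls became 8, and with wild-type day 0 replicate 2 left out they became 7. In the mean of both lines 20 fell (6.69% of all sgRNAs) and 1 rose (0.56% of all sgRNAs). No single sgRNA passed in the difference between the lines, among the members or in the whole library. The sgRNAs of a gene share its promoter and are not replicates of a condition.

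Spread was taken on changes of log2(CPM + 0.5), not on the edgeR changes given above. The kept WDR5 sgRNAs had 0.02 to 0.74 CPM at day 9. At that level the added 0.5 narrows their changes, so the WDR5 spread is not a measure of how alike its sgRNAs were. On this scale the sgRNAs of a gene differed more among themselves than between replicates in all 10 genes in mutant cells. In wild-type cells they did so in all but MEN1. The SD between sgRNAs in mutant cells was 0.90 for WDR82, 0.83 for SETD1B, 0.76 for DPY30, 0.64 for WDR5 and 0.55 for RBBP5. The median SD between replicates of these sgRNAs was 0.20 for WDR82, 0.55 for SETD1B, 0.15 for DPY30, 0.13 for WDR5 and 0.43 for RBBP5. The gene values of all 10 genes are summed counts. Those of RBBP5, SETD1B, CXXC1 and HCFC1 include 1 sgRNA that was the lowest of its gene in both lines. The other sgRNAs of these genes had smaller falls or rises. For RBBP5, SETD1B and HCFC1, some of those others were also below 0 in both lines. DPY30 and WDR82 likewise had 1 sgRNA that was the lowest in both lines, and their other sgRNAs all had smaller falls. The plot of single sgRNAs shows this spread.

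**Figure D3:**
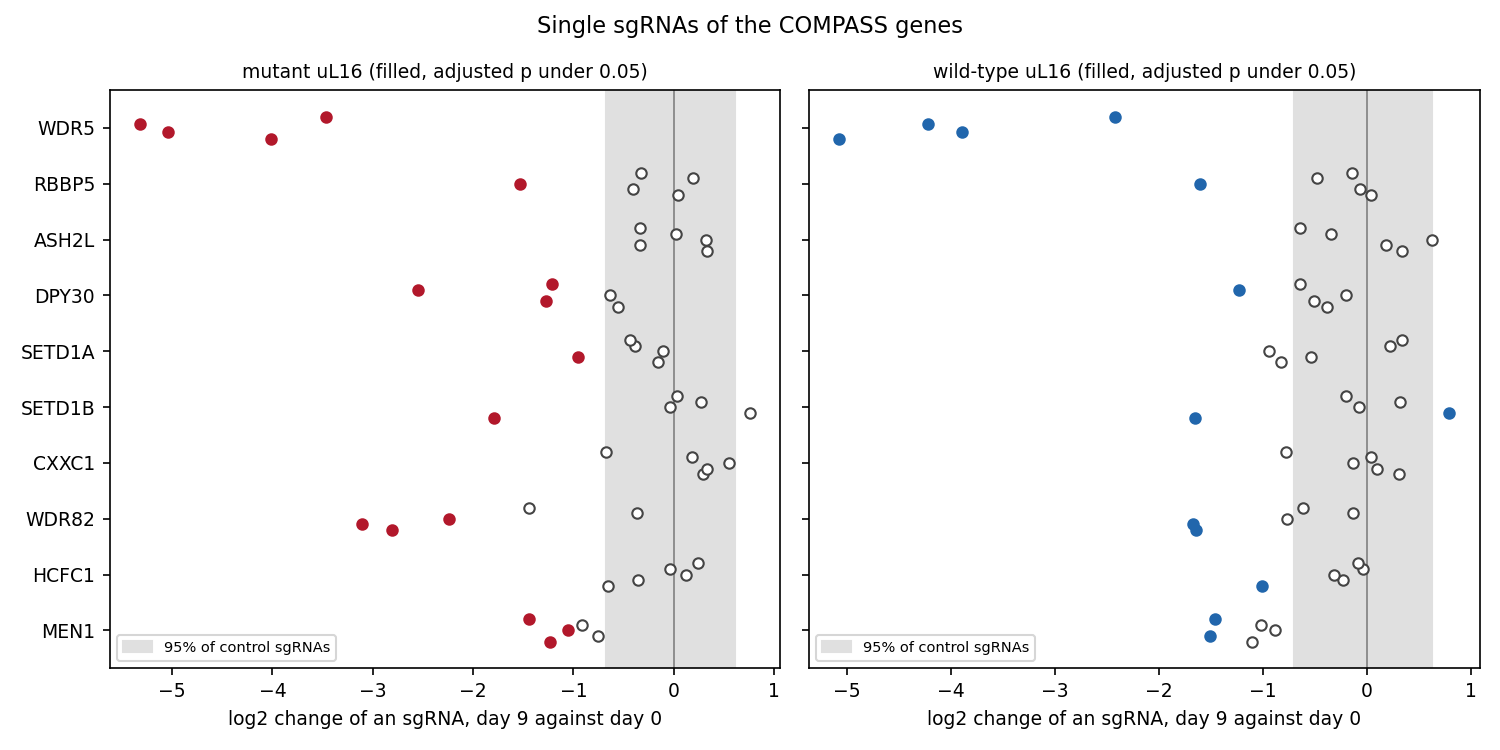
Log2 change of day 9 against day 0 of each kept sgRNA, by COMPASS gene, in mutant cells (left) and wild-type cells (right). Filled points passed an adjusted p of 0.05 and the grey band holds 95% of the non-targeting control sgRNAs. All 4 WDR5 sgRNAs and all 5 MEN1 sgRNAs lie to the left of the band in both lines, while RBBP5 and SETD1B have 1 point far left of it.

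The genes whose pattern over the 4 day 9 libraries was nearest to that of WDR5 were CENPI, RFC3 and SRBD1. Likeness was the Euclidean distance of log2(CPM + 0.5) at day 9 minus the same line's day 0 mean. WDR5 had 0.62 to 1.54 CPM at day 9, a level at which the added 0.5 narrows its changes. The distance was 0.33 for CENPI, a centromere protein, 0.45 for RFC3, a subunit of the clamp loader of DNA replication, and 0.46 for SRBD1. By edgeR, CENPI changed by -3.98 (SE 0.23) in mutant cells and by -3.50 (SE 0.22) in wild-type cells. RFC3 changed by -3.93 (SE 0.18) in mutant cells and by -3.06 (SE 0.17) in wild-type cells. SRBD1 changed by -4.05 (SE 0.19) in mutant cells and by -3.13 (SE 0.18) in wild-type cells. The edgeR changes of WDR5 were -4.42 in mutant cells and -3.53 in wild-type cells. The nearest members were MEN1 at 4.50, WDR82 at 4.65 and DPY30 at 4.65, so no COMPASS gene came close to WDR5.

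WDR5 also belongs to the NSL histone acetyltransferase complex. Of its 7 other listed genes, 6 fell in mutant cells, 4 in wild-type cells and 5 in the mean of both lines, and none rose, where 8.53%, 8.7% and 11.4% of all genes fell in these 3 comparisons. KANSL2, a subunit of the complex, changed by -2.19 (SE 0.33) in mutant cells and by -2.30 (SE 0.34) in wild-type cells. KANSL3, another subunit, changed by -1.87 (SE 0.15) in mutant cells and by -1.50 (SE 0.14) in wild-type cells. The median log2 change of this list, which leaves out WDR5, was -0.57 over both lines. It was -0.30 for the 10 COMPASS genes, which include WDR5, and 0.02 for all genes. Whether the fall of WDR5 was related to this complex was not tested.

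Of the 5 listed MLL family genes, 1 fell and none rose in mutant cells, where 8.53% of all genes fell and 0.704% rose. In wild-type cells none fell and 1 rose, where 8.7% of all genes fell and 0.868% rose. KMT2A fell in mutant cells, by 0.46 on the log2 scale (adjusted p = 0.00246). It was at -0.10 in wild-type cells (adjusted p = 0.679). The difference of -0.36 had an adjusted p of 0.883. KMT2E, a divergent family member, rose in wild-type cells by 0.37 (adjusted p = 0.0405) and was at 0.19 in mutant cells (adjusted p = 0.441). KMT2B, KMT2C and KMT2D did not pass in either line. Of 7 other subunits of MLL complexes or their partners, 1 fell and 1 rose in each line. Over all genes 8.53% fell and 0.704% rose in mutant cells, and 8.7% fell and 0.868% rose in wild-type cells. A fall of 1 among 7 is near the share of all genes. BOD1L1, a large partner of SETD1A in replication fork protection, changed by -1.03 (SE 0.11) in mutant cells and by -0.59 (SE 0.11) in wild-type cells. NCOA6, a coactivator of KMT2C and KMT2D complexes, rose by 0.78 (SE 0.10) in mutant cells and by 0.55 (SE 0.10) in wild-type cells.

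Ubiquitin on histone H2B stimulates COMPASS enzymes, and the PAF1 complex on elongating RNA polymerase II promotes that mark. Of 11 genes of this group, 6 fell in mutant cells and 8 in wild-type cells, and none rose, where 8.53% of all genes fell and 0.704% rose in mutant cells and 8.7% fell and 0.868% rose in wild-type cells. The median over both lines was -0.76. RNF40, part of the ubiquitin ligase, changed by -1.23 (SE 0.12) in mutant cells and by -0.93 (SE 0.12) in wild-type cells. PAF1 itself changed by -1.97 (SE 0.18) in mutant cells and by -2.15 (SE 0.18) in wild-type cells.

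Of 6 genes of demethylases that remove the mark, 2 fell in each line, where 8.53% of all genes fell in mutant cells and 8.7% in wild-type cells. KDM1A changed by -0.82 (SE 0.14) in mutant cells and by -0.87 (SE 0.15) in wild-type cells. Its corepressor partner RCOR1 changed by -0.82 (SE 0.15) in mutant cells and by -0.66 (SE 0.16) in wild-type cells. Of 6 partners of WDR82 outside COMPASS, 2 fell in mutant cells and 3 in wild-type cells, against the same shares of all genes. ZC3H4, which restricts transcription of unstable RNAs, changed by -1.07 (SE 0.11) in mutant cells and by -0.98 (SE 0.11) in wild-type cells. PPP1R10, a regulatory subunit of protein phosphatase PP1, changed by -0.86 (SE 0.10) in mutant cells and by -0.57 (SE 0.10) in wild-type cells.

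Of 7 HCFC1 partners, 1 fell and none rose in mutant cells, and 2 fell and 1 rose in wild-type cells. Over all genes 8.53% fell and 0.704% rose in mutant cells, and 8.7% fell and 0.868% rose in wild-type cells, so 1 of 7 is near the share of all genes. OGT, the glycosyltransferase that also cleaves HCFC1 and is counted in the NSL list as well, changed by -0.43 (SE 0.13; adjusted p = 0.0316) in mutant cells and by -0.72 (SE 0.13; adjusted p = 1.54e-04) in wild-type cells. ZNF143, a promoter-binding factor, was at -0.23 (adjusted p = 0.303) in mutant cells and fell by 0.39 (adjusted p = 0.0257) in wild-type cells. Of 14 other histone lysine methyltransferases, none passed the threshold in mutant cells, where 8.53% of all genes fell. In wild-type cells 1 of the 14 fell, which is near the 8.7% of all genes that did. This was DOT1L, which fell by 0.52 (adjusted p = 0.00181) and was at -0.26 (adjusted p = 0.221) in mutant cells. In the mean of both lines 3 of the 14 fell, where 11.4% of all genes did. EHMT1, which was among them (adjusted p = 0.0303), was at -0.24 in mutant cells and -0.33 in wild-type cells, short of the threshold in both. No gene of these 8 lists passed in the difference between the lines. The plot of list members sets them beside the COMPASS genes.

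**Figure D4:**
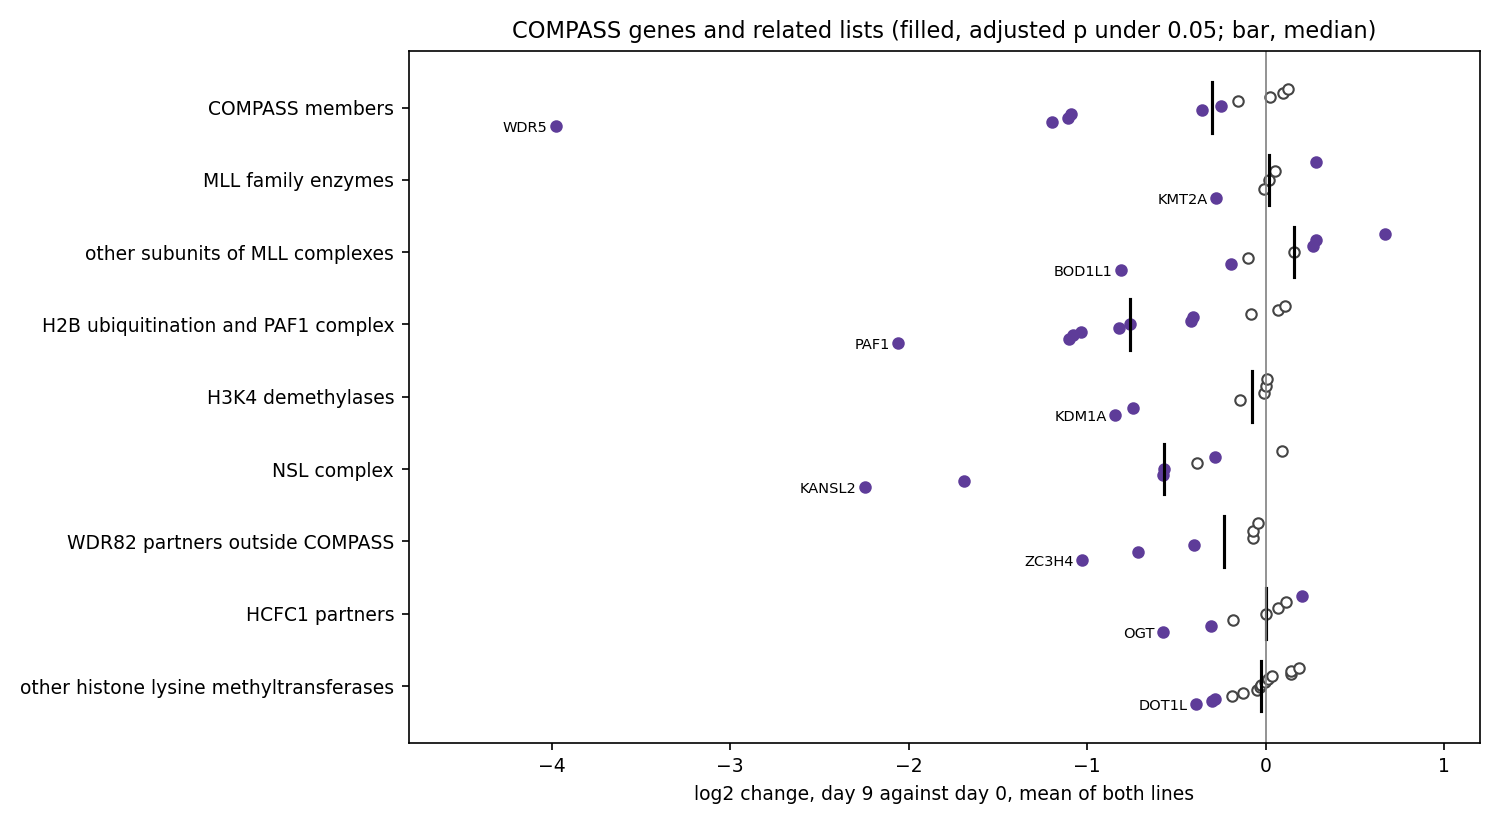
Log2 change of day 9 against day 0, averaged over both lines, for the 10 COMPASS genes and 8 lists of related genes; each point is a gene, filled where its adjusted p was under 0.05, and bars are list medians. WDR5 is the lowest point of all, and the PAF1 and NSL lists have the lowest medians.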

How the data were processed

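The deposited values are unnormalized read counts, 1 per sgRNA and library, from 8 libraries of genomic DNA. Per the file headers, bases 1 to 39 of each read were matched, forward, to the human CRISPRi version 2 library, by a program not given in the sources used. Groups and replicate numbers came from the labels. An sgRNA was kept at a mean count of at least 20. Counts were then summed by gene over the sgRNAs of its primary promoter, with 3 sgRNAs as the minimum; separate second promoters were tested apart. Depth sets counting error only, because reads were amplified by PCR with no molecular identifiers.

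Counts were normalized by TMM and fitted in R 4.3.3 with edgeR 4.0.16 (quasi-likelihood) with 1 mean per group, which leaves 4 residual degrees of freedom. Contrasts were day 9 against day 0 in mutant and in wild-type cells, their difference (mutant minus wild-type), their mean, and mutant against wild-type at each day. The Benjamini-Hochberg adjustment ran over all genes, or all sgRNAs, with calls at an adjusted p-value of 0.05. The scripts were tested on simulated data. Alternatives were DESeq2 1.42.0, RLE size factors, scaling to control sgRNAs, a minimum mean count of 100 or none, limma 3.58.1 on mean log2 CPM (prior count 2), leaving out the most abundant sgRNA, pooling promoters, fitting the libraries of a line alone, a replicate block, leaving out each library, and, chosen after seeing the data, limma-voom with a weight per day.

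The 10 genes and the 8 lists were chosen with earlier results of these data known. All 10 members were named, with MEMO1 for its shared sgRNAs, 2 genes per list with the smallest p of the mean change, and the 3 genes most like WDR5; other names (KMT2B, KMT2C, KMT2D, TMEM187) were added after their values were seen. Symbols are those of the sgRNA names. Positions in those names were used as distances within a gene, never as coordinates. Promoter sequences are RefSeq's, on GRCh38.p14. Replicates of a group were not copies of each other (chi-square of 12.8 to 19.0 per degree of freedom). Replicate numbers were not used to pair libraries in the main fit. The correlation of deviations between same-numbered libraries was -0.0039 to 0.047 over the 6 pairs of groups. It was highest between the days of a line, at 0.047 in mutant cells and 0.024 in wild-type cells. Low values cannot show that libraries were not paired, and a replicate block was among the alternatives.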

Additional observations from a re-analysis of the deposited data

How the results depend on the processing

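WDR5, DPY30, WDR82 and MEN1 passed in both lines and in their mean under every alternative run, up to 19 per result. The count of COMPASS genes called was 4 to 6 in mutant cells, 4 to 6 in wild-type cells and 5 to 7 in the mean. In the difference between lines, where 0 genes were called, DESeq2 called 2, the replicate block 1 (DPY30, adjusted p = 0.0451), and leaving out each library gave 0 to 1. At day 9, where 2 genes were called between lines, DESeq2 called 4, limma on mean log2 CPM 1, limma-voom 1, and leaving out each library gave 1 to 2; DPY30 passed in all 18 alternatives and WDR82 in 9. At day 0 the count was 0 throughout. Leaving out each library gave 12 to 20 called sgRNAs in mutant cells and 7 to 14 in wild-type cells. The cause of these changes was not tested. Shares of all genes called were not taken for the alternatives, so these counts have no share beside them.

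Signs turned for genes that never passed in that contrast. For ASH2L, without the most abundant sgRNA, the change was -0.076 in mutant cells and -0.13 in the mean. It was -0.0016 in mutant cells, -5.7e-05 in the difference and -0.0016 in the mean with limma-voom, and -0.0083 in the mean when scaled to control sgRNAs. In wild-type cells ASH2L was 0.0017 with RLE factors, 0.0017 with DESeq2 and 0.021 with limma on mean log2 CPM, which gave a difference of -0.019. For SETD1B, limma on mean log2 CPM gave -0.22 in mutant cells, -0.18 in wild-type cells, -0.037 in the difference and -0.20 in the mean. Without its most abundant sgRNA SETD1B was -0.40 in mutant cells, -0.41 in wild-type cells and -0.40 in the mean. CXXC1 in wild-type cells was -0.096 with limma on mean log2 CPM and -0.11 without its most abundant sgRNA.

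Leaving out each library gave, for ASH2L, -0.032 to 0.13 in mutant cells, -0.036 to 0.032 in wild-type cells, -0.030 to 0.14 in the difference and -0.017 to 0.066 in the mean. For SETD1B it gave -0.093 to 0.33, -0.078 to 0.21, -0.15 to 0.27 and -0.019 to 0.19 in these 4 contrasts. It gave -0.094 to 0.012 for HCFC1 in mutant cells, -0.037 to 0.10 for CXXC1 in wild-type cells, and -0.064 to 0.18 for RBBP5 and -0.022 to 0.29 for MEN1 in the difference. The cause was not tested. With 2 libraries a group and 34 to 70 reads for WDR5 at day 9, its difference between lines had an SE of 0.54.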
